A study of Mus musculus with 18 samples.

Results

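The genes described here are 45 genes of sugar metabolism and of the response to low oxygen, among 12547 genes measured by RNA-seq in CD4 T cells from Id3-knockout (KO) and wild-type (WT) mice. They were chosen by name and by role, and all 45 were present in the table of values. They comprise 4 glucose and lactate transporters, 10 genes of the steps between hexokinase and fructose bisphosphate, 6 genes of the triose steps to pyruvate, 5 genes of the lactate and pyruvate branch, 11 other genes induced by hypoxia, 3 genes of the glycogen branch and 6 genes of the pentose phosphate pathway. The symbol Aldoa was held by 2 rows of the table, and the row of the higher mean log2 value, 16.07 against 5.42, was used.

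The 6 groups were KO cells of sets 3, 5 and 6 and WT cells of sets 3, 5 and 6, with 3 libraries each. All of them were naive CD4 T cells stimulated with beads carrying antibodies against CD3 and CD28 in a Th1 medium, with IL2 and IL12 added and IL4 blocked by antibody. Th1 cells are the CD4 helpers marked by interferon gamma. The labels leave the set numbers unexplained, and contrast names in the authors' deposited table join set 3 to 24 and sets 5 and 6 to 96 with no unit. The labels do not say whether replicates were separate mice and give the knockout no further allele, so the p-values measure the spread between these libraries. Id3 encodes an inhibitor of the E protein transcription factors.

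Glycolysis splits glucose into pyruvate, and lactate dehydrogenase turns pyruvate into lactate, which leaves the cell through monocarboxylate transporters. Activated T cells raise glycolysis strongly, also in the presence of oxygen. The pentose phosphate pathway branches off at glucose 6-phosphate and yields NADPH and the ribose of nucleotides. Hypoxia-inducible factors (HIF) are transcription factors that are destroyed while oxygen is plentiful and otherwise switch on glucose transporters, many glycolytic enzymes and genes such as Vegfa. They bind DNA at a short core sequence, ACGTG or GCGTG.

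Promoters of 4 genes are shown because their genes are among those described by library below, 3 of them hypoxia-induced genes or transporters and 1 the gene with the largest difference between KO and WT cells. Each is the 300 bases from 250 before to 50 after the annotated start, from RefSeq on GRCm38.p6, printed in the direction of the gene, and capitals mark every ACGTG or GCGTG on either strand. They are P4ha2 at chr11:54100674-54100973 on the plus strand, Slc16a3 at chr11:120948817-120949116 on the plus strand, Ankrd37 at chr8:45999801-46000100 on the minus strand and Ldhd at chr8:111630287-111630586 on the minus strand.
P4ha2: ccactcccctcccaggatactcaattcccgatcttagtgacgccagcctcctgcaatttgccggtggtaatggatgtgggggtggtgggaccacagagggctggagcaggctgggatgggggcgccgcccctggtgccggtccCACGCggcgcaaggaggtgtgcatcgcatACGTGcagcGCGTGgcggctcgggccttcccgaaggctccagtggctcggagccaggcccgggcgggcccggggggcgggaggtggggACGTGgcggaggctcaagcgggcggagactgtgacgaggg
Slc16a3: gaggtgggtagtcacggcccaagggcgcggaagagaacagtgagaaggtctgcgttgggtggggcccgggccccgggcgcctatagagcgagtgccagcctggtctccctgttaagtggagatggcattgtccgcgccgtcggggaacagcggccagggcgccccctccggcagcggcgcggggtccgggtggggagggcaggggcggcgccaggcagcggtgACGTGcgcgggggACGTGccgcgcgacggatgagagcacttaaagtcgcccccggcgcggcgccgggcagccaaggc
Ankrd37: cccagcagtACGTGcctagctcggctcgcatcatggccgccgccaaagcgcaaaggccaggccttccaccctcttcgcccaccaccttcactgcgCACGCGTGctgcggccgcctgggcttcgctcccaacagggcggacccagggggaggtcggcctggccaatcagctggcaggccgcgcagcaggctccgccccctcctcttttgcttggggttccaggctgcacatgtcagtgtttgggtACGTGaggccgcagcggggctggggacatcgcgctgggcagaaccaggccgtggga
Ldhd: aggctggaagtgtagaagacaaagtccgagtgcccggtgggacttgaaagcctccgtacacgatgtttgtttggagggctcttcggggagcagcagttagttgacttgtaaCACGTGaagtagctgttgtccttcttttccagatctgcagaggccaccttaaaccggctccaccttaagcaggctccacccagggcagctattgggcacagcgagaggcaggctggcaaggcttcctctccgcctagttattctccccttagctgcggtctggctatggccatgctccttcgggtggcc
P4ha2 and Ankrd37 held 4 matches each, and Slc16a3 and Ldhd held 2 each. The 2 matches of Ldhd are the 2 strands of a single CACGTG, which reads the same on both strands, and the capitals CACGCGTG of Ankrd37 join 2 overlapping matches.

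RefSeq listed promoters for 42 of the 45 genes, and those of Slc2a3, Ndrg1 and Bnip3l were not in the table used. Of their 59 promoters, 47 (79.7%) held ACGTG or GCGTG, against 61.2% of the 12724 promoters of genes in the expression table and 43.8% of all 32851 promoters of the same length. For ACGTG alone the shares were 50.8%, 25.5% and 19.6%. The promoters with the most matches were one of Ldha, with 7, followed by those of Bnip3 and Slc16a1 and one of Hk1, with 5 each. No match lay in the windows of Gbe1, Gpi1, Gys1 and Tpi1. A match is a stretch of letters, and binding was not measured.

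The labels were checked on Id3 and on marker genes. Id3 lay between log2 1.0 and 5.63 in the 9 KO libraries and between 8.85 and 10.08 in the 9 WT libraries. Cd3e stood at 12.53 or more, Cd4 at 11.52 or more and Ifng at 13.63 or more in every library. In KO cells of set 3, 6 of 8 B cell markers, 6 of 7 mast cell and basophil markers and 4 of 6 erythroid markers rose against WT. Their summed log2 levels were 8.02 to 10.97 in KO against 6.27 to 7.5 in WT libraries for B cells, 9.53 to 9.83 against 6.25 to 7.06 for mast cells and basophils, and 11.88 to 13.87 against 8.85 to 9.57 for erythroid cells. In set 5 the measured macrophage and monocyte genes summed to 9.35 to 9.82 in KO against 7.24 to 7.65 in WT libraries, with Cd68 and Adgre1 higher and Lyz2 and Itgam not past the test. In set 6 the same sums were 10.27 to 10.50 in KO against 8.43 to 9.35 in WT libraries. Of 10 T cell identity genes, 1 rose and 4 fell in KO cells of set 3, and 9 rose in set 5 and in set 6, or 2 and 1 after centring. Of all genes, 6.92% rose and 4.46% fell in set 3. In sets 5 and 6, 50.1% and 53.9% of all genes rose, and 24.9% and 18.8% were higher after centring. The centred counts of T cell identity genes were thus not above the share of all genes. Of 3 dendritic cell markers, 2 rose in set 3. Of 13 genes encoded by mitochondrial DNA, read as a measure of RNA quality, 6 rose in set 5 and 3 in set 6. The share that rose was near that of all genes (50.1%) in set 5 and below it (53.9%) in set 6. After centring 3 were lower in set 5 and 6 in set 6, where 24.7% and 18.5% of all genes were lower. The part of these shifts in the differences below was not tested. In bulk RNA, fewer cells of a type and less RNA per cell cannot be told apart.

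The values were on a log2 scale and gave no depth per library. They had been made nearly equal in distribution within each group, with 97.0 to 98.4% of sorted values identical, which narrows the spread behind each test. The median difference of all genes between KO and WT cells was -0.07 in set 3, 0.39 in set 5 and 0.42 in set 6. Counts of these genes are therefore given on the deposited scale and, where they differ, after each library was centred on its own median. Rose and fell refer to an adjusted p under 0.05 in limma on the deposited scale unless centring is named.

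Genes of sugar metabolism and of the hypoxia response were more often lower than higher in KO cells of sets 5 and 6, while most genes of the table were higher there, and 1 of the 45 differed in set 3. In set 3, none of the 45 rose and 1 fell, where 6.92% of all genes rose and 4.46% fell. In set 5, 3 rose and 14 fell in KO cells, or 31.1% lower, where 50.1% of all genes rose and 8.08% fell. In set 6, 5 rose and 10 fell, or 22.2% lower, where 53.9% rose and 4.59% fell. The 10 that fell in set 6 had all fallen in set 5 as well, and the 3 that rose in set 5 rose in set 6. Libraries of sets 5 and 6 with the same replicate number were correlated, so set 6 is not an independent repeat of set 5.

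Centring widened the fall. In set 5, 28 genes were lower (62.2%) and 1 was higher, where 24.7% of all genes were lower and 24.9% higher. In set 6, 20 were lower (44.4%) and 1 was higher, where 18.5% of all genes were lower and 18.8% higher. The 1 higher gene was Ldhd in both sets, and 18 genes were lower in both. On the deposited scale the median difference of the 45 genes was 0.07 in set 3, -0.21 in set 5 and -0.13 in set 6. Without KO replicate 3 of set 6, 4 genes fell in that set in place of 10, and without WT replicate 2 of set 5 only Ldhd rose in that set.

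**Figure D1:**
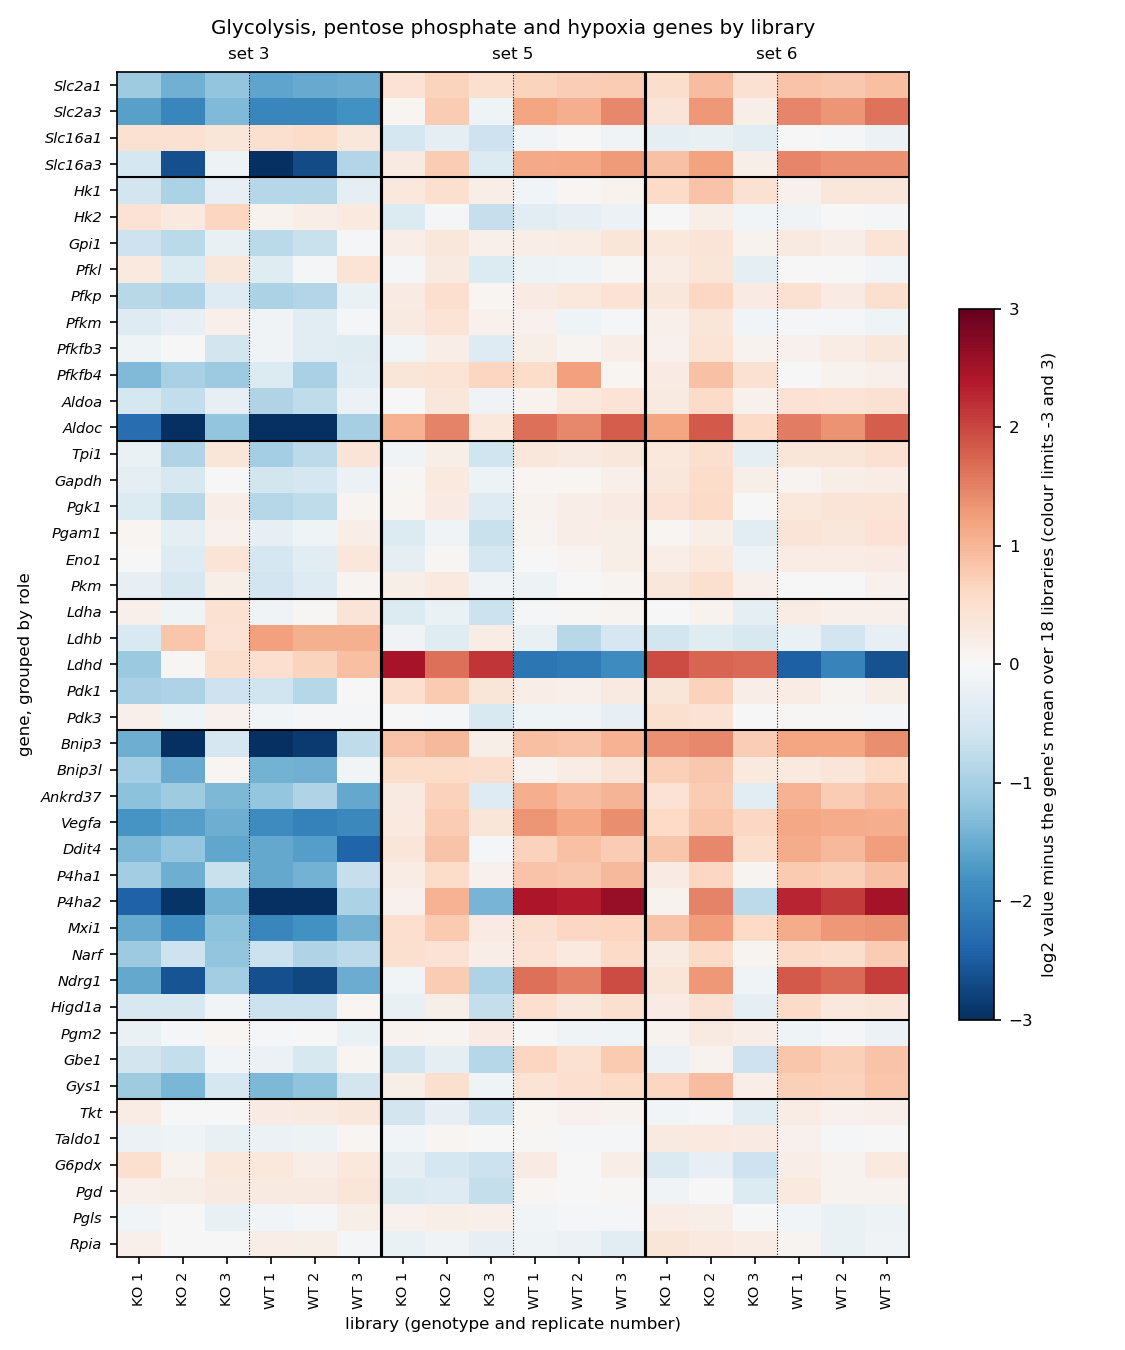
Deposited log2 values of the 45 genes (rows, grouped by role) in the 18 libraries (columns, KO left of WT within a set), coloured by each gene's difference from its mean over all libraries. Within set 5 and within set 6, P4ha2, Ndrg1 and Slc2a3 are lower in all KO than in all WT libraries, and Ldhd is higher.

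Of the transporters, Slc2a3, which encodes the glucose transporter GLUT3, fell in KO cells of sets 5 and 6. Its log2 values were 11.72, 12.41 and 11.52 in KO against 12.84, 12.76 and 13.09 in WT libraries of set 5. In set 6 they were 12.03, 12.95 and 11.83 in KO against 13.12, 12.97 and 13.30 in WT libraries. No KO value reached the lowest WT value in either set, and KO replicate 2 of set 6 came closest. In set 3 they were 10.03, 9.71 and 10.33 in KO against 9.69, 9.69 and 9.83 in WT libraries, and the groups overlapped. The difference was -1.02 in set 5 (SE 0.25; limma adjusted p = 0.00251) and -0.86 in set 6 (SE 0.25; limma adjusted p = 0.00824), and the second was lost without KO replicate 3 (limma adjusted p = 0.0528).

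Slc16a1, which encodes the monocarboxylate transporter MCT1, fell by 0.39 in set 5 (SE 0.08; limma adjusted p = 0.000777) and by 0.20 in set 6 (SE 0.08; limma adjusted p = 0.0490). The call in set 6 was lost when any KO replicate, WT replicate 1 or WT replicate 2 was left out (limma adjusted p from 0.0598 to 0.167). Slc2a1, the gene of the transporter GLUT1, differed by -0.18 in set 5 and -0.22 in set 6 and passed only after centring, at -0.57 (limma adjusted p = 0.000464) and -0.63 (limma adjusted p = 0.000382).

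Slc16a3 encodes MCT4, the lactate exporter of glycolytic cells, and passed the test in no single set. In set 3 it stood at 11.66, 9.56 and 12.03 in KO against 8.40, 9.50 and 11.32 in WT libraries, which overlapped. In set 5 it stood at 12.45, 12.95 and 11.78 in KO against 13.33, 13.34 and 13.47 in WT libraries. In set 6 it stood at 13.08, 13.40 and 12.37 in KO against 13.65, 13.57 and 13.56 in WT libraries. All KO values of sets 5 and 6 lay below all WT values of the same set, and the differences of -0.98 and -0.65 did not pass with the SE of 0.62 that all groups share (limma adjusted p = 0.188 and 0.388).

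None of the 10 genes between hexokinase and fructose bisphosphate rose or fell between KO and WT cells in any set. This group includes Hk1 and Hk2, which trap glucose in the cell, Pfkl, Pfkp and Pfkm, the subunits of the rate-setting phosphofructokinase, and Pfkfb3 and Pfkfb4, which control its activator. Their differences ran from -0.68 (Aldoc) to 0.30 (Hk1) in set 5 and from -0.37 (Aldoc) to 0.45 (Pfkfb4) in set 6. Relative to the median of all genes, 4 were lower in set 5 (Hk2, Pfkp, Pfkfb3 and Aldoa) and 3 in set 6 (Gpi1, Pfkfb3 and Aldoa). Pfkfb3 was at -0.63 (limma adjusted p = 0.00251) and -0.43 (limma adjusted p = 0.0326) on that scale. Hk1 did not pass, although all its KO values lay above all WT values in sets 5 and 6. Over the 45 genes, all KO values lay above all WT values in 7 genes and below them in 16 in set 5. In set 6 these numbers were 8 and 13. Of all genes, 54.3% lay above and 9.69% below in set 5, and 59.1% and 6.01% in set 6.

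Of the 6 genes of the triose steps, Pgam1, the phosphoglycerate mutase gene, fell in sets 5 and 6. Its difference was -0.55 in set 5 (SE 0.15; limma adjusted p = 0.00515) and -0.42 in set 6 (SE 0.15; limma adjusted p = 0.0268). The call in set 6 was lost when KO replicate 3, WT replicate 1 or WT replicate 3 was left out (limma adjusted p from 0.0548 to 0.155). Gapdh differed by -0.03 in set 5 and 0.19 in set 6, and Pkm, the pyruvate kinase gene, by 0.15 and 0.27, none past the test. After centring, Tpi1, Gapdh, Pgam1 and Eno1 were lower in set 5, and Pgam1 alone of the 6 in set 6.

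**Figure D2:**
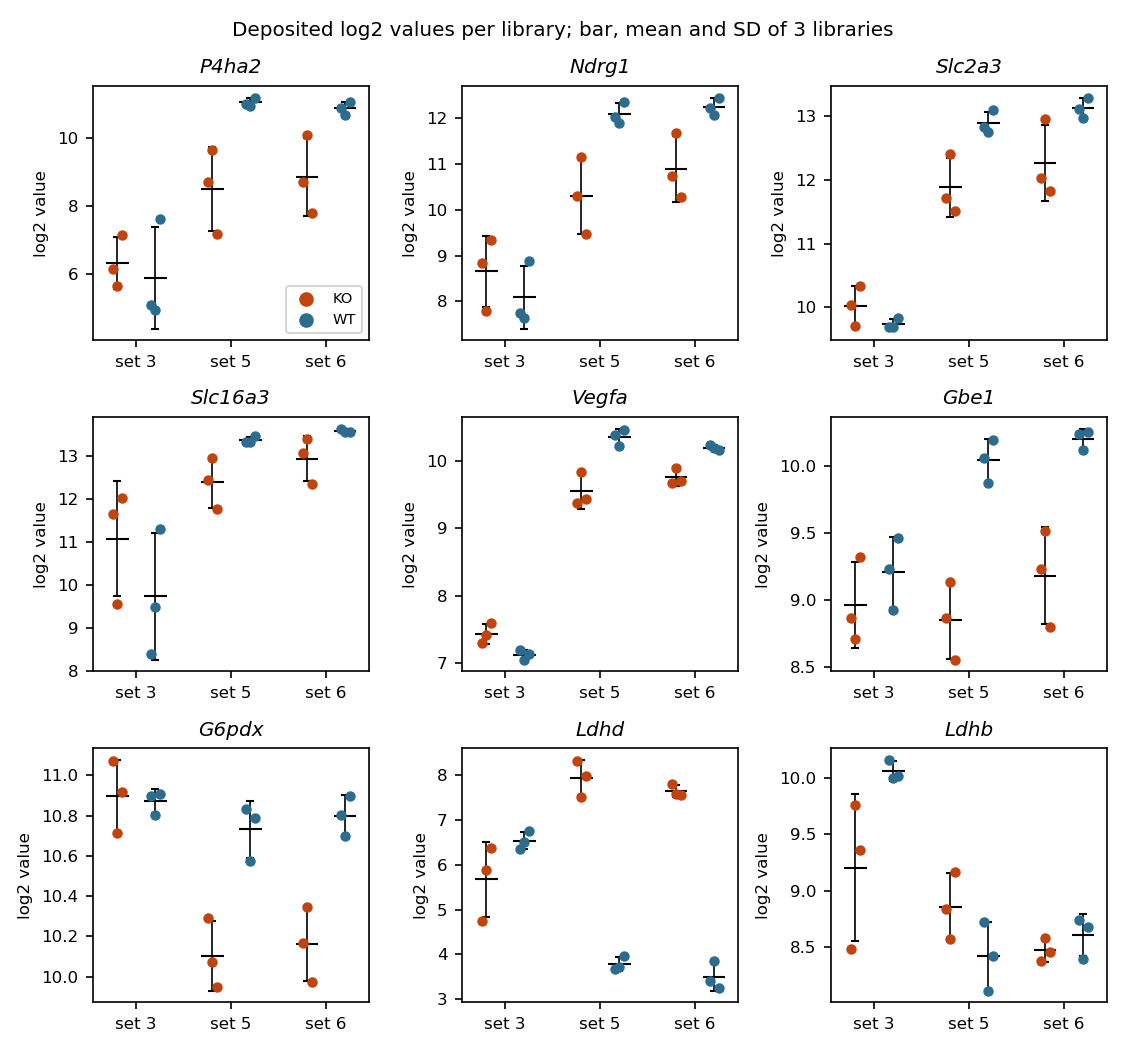
Deposited log2 value of each library (points) and group mean with its SD (black bars) for 9 genes, with KO left of WT within each set. In sets 5 and 6 the KO libraries of P4ha2, Ndrg1 and Gbe1 lie below the WT libraries, and those of Ldhd lie above them.

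The largest difference of the 45 genes was the rise of Ldhd, which encodes the mitochondrial D-lactate dehydrogenase. Its log2 values were 8.32, 7.51 and 8.0 in KO against 3.67, 3.72 and 3.96 in WT libraries of set 5. In set 6 they were 7.81, 7.59 and 7.55 in KO against 3.40, 3.85 and 3.24 in WT libraries. Every KO library lay more than 3 log2 units above every WT library of its set. In set 3 the order was the other way, with 4.75, 5.90 and 6.38 in KO against 6.36, 6.52 and 6.75 in WT libraries, and the groups overlapped narrowly. The difference was 4.16 in set 5 (SE 0.33; limma adjusted p = 6.27e-08), 4.16 in set 6 (SE 0.33; limma adjusted p = 1.04e-07) and -0.87 in set 3 (SE 0.33; limma adjusted p = 0.104). On the linear scale this was 17.9-fold in set 5 and 17.8-fold in set 6.

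Ldhb encodes the lactate dehydrogenase subunit that favours the formation of pyruvate and was the only gene of the 45 called in set 3. It stood at 8.49, 9.76 and 9.37 in KO against 10.16, 10.00 and 10.01 in WT libraries of set 3. The groups did not overlap, and KO replicate 1 lay far below the others. The difference was -0.85 (SE 0.24; limma adjusted p = 0.0342), and the call held without KO replicate 2 and was lost when any other library of set 3 was left out (limma adjusted p from 0.0568 to 0.167). In set 5 Ldhb stood at 8.84, 8.57 and 9.17 in KO against 8.72, 8.12 and 8.43 in WT libraries, and in set 6 at 8.38, 8.58 and 8.46 in KO against 8.74, 8.40 and 8.68 in WT libraries. Both sets overlapped, and neither difference passed.

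Ldha, the subunit that favours lactate, fell by 0.44 in set 5 (SE 0.15; limma adjusted p = 0.0168) and differed by -0.25 in set 6. The call in set 5 was lost without KO replicate 3 (limma adjusted p = 0.0914) or WT replicate 3 (limma adjusted p = 0.0507). Pdk1 and Pdk3, kinases that shut pyruvate out of the mitochondrial dehydrogenase complex, passed in no set on the deposited scale, and Pdk3 was lower after centring in set 5 (-0.39; limma adjusted p = 0.0184).

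Among the 11 other hypoxia-induced genes, 6 fell and none rose in KO cells of set 5, and 3 fell and none rose in set 6. P4ha2, a subunit of the collagen prolyl 4-hydroxylase, fell most. It stood at 8.71, 9.63 and 7.19 in KO against 11.01, 10.94 and 11.19 in WT libraries of set 5. The set 6 libraries stood at 8.70, 10.07 and 7.80 in KO against 10.87, 10.68 and 11.07 in WT libraries. The KO libraries were spread over more than 2 log2 units while the WT libraries lay close together, and all KO values were below all WT values. In set 3 the values were 6.15, 5.65 and 7.16 in KO against 5.10, 4.96 and 7.63 in WT libraries, with wide overlap. The difference was -2.54 in set 5 (SE 0.70; limma adjusted p = 0.0052) and -2.02 in set 6 (SE 0.70; limma adjusted p = 0.0208), the second lost when KO replicate 1, KO replicate 3 or WT replicate 3 was left out (limma adjusted p from 0.0539 to 0.106).

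Ndrg1, a stress-responsive gene strongly induced by hypoxia, showed the same order. It stood at 10.30, 11.15 and 9.46 in KO against 12.02, 11.89 and 12.34 in WT libraries of set 5. In set 6 it stood at 10.73, 11.67 and 10.27 in KO against 12.21, 12.07 and 12.45 in WT libraries. The highest KO library, replicate 2, stayed below the lowest WT library in both sets. In set 3 the groups overlapped, at 8.83, 7.79 and 9.33 in KO against 7.74, 7.65 and 8.88 in WT libraries. The difference was -1.78 in set 5 (SE 0.45; limma adjusted p = 0.00286) and -1.35 in set 6 (SE 0.45; limma adjusted p = 0.0171), the second lost without KO replicate 3 (limma adjusted p = 0.0857) or WT replicate 3 (limma adjusted p = 0.0542).

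Vegfa encodes the vascular growth factor that is a textbook HIF target. It stood at 9.37, 9.84 and 9.43 in KO against 10.38, 10.22 and 10.46 in WT libraries of set 5. Set 6 gave 9.67, 9.90 and 9.69 in KO against 10.23, 10.18 and 10.16 in WT libraries. The groups were apart in both sets and in set 3 as well, where the KO libraries, at 7.29, 7.41 and 7.59, lay above the WT libraries, at 7.19, 7.05 and 7.13. The difference was -0.81 in set 5 (SE 0.12; limma adjusted p = 3.23e-05), -0.44 in set 6 (SE 0.12; limma adjusted p = 0.00567) and 0.31 in set 3 (SE 0.12; limma adjusted p = 0.113).

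P4ha1, another prolyl 4-hydroxylase subunit gene, stood at 11.33, 11.67 and 11.25 in KO against 11.97, 11.93 and 12.08 in WT libraries of set 5. In set 6 it stood at 11.36, 11.74 and 11.19 in KO against 11.89, 11.84 and 12 in WT libraries. The groups were apart in both sets, whereas in set 3 they overlapped, at 10.08, 9.64 and 10.44 in KO against 9.57, 9.69 and 10.42 in WT libraries. P4ha1 fell by 0.58 in set 5 (SE 0.21; limma adjusted p = 0.0279) and differed by -0.48 in set 6 (SE 0.21; limma adjusted p = 0.0610). The call in set 5 was lost when replicate 1 or 3 of either genotype was left out (limma adjusted p from 0.0560 to 0.0968).

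Ankrd37, an ankyrin repeat gene, stood at 9.68, 10.10 and 9.03 in KO against 10.49, 10.33 and 10.43 in WT libraries of set 5. Values in set 6 were 9.84, 10.17 and 9.10 in KO against 10.45, 10.16 and 10.32 in WT libraries, which overlapped by 1 library. In set 3 it overlapped fully, at 8.17, 8.35 and 8.07 in KO against 8.24, 8.51 and 7.88 in WT libraries. Ankrd37 fell by 0.82 in set 5 (SE 0.26; limma adjusted p = 0.0125), a call lost without KO replicate 3 (limma adjusted p = 0.0852), and differed by -0.61 in set 6 (SE 0.26; limma adjusted p = 0.0537). With the replicate number as a block, set 6 passed (limma adjusted p = 0.0195). However, KO and WT libraries of set 6 with the same number were not correlated (-0.06 to 0.007) and were taken as unpaired.

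Higd1a encodes a small protein of the inner mitochondrial membrane. It stood at 12.90, 13.29 and 12.39 in KO against 13.62, 13.46 and 13.58 in WT libraries of set 5. In set 6 it stood at 13.36, 13.58 and 12.84 in KO against 13.69, 13.43 and 13.48 in WT libraries, and in set 3 at 12.64, 12.64 and 13.03 in KO against 12.47, 12.47 and 13.16 in WT libraries. The groups were apart only in set 5. It fell by 0.69 there (SE 0.22; limma adjusted p = 0.0143), a call lost without KO replicate 3 (limma adjusted p = 0.0938), and differed by -0.27 in set 6.

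The other 5 hypoxia-induced genes did not pass in any set on the deposited scale. Bnip3 and Bnip3l, receptors of mitophagy, differed by -0.27 and 0.30 in set 5 and by -0.06 and 0.19 in set 6. Ddit4, an inhibitor of mTORC1 signalling, was at -0.37 and -0.18 in these sets, Mxi1, an antagonist of MYC, at -0.07 and -0.35, and Narf at -0.05 and -0.31. After centring, Ddit4 and Narf were lower in set 5 and Mxi1 and Narf in set 6, so 8 of the 11 genes were lower in each set and none was higher.

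In the glycogen branch, Gbe1, the glycogen branching enzyme gene, fell in sets 5 and 6. It stood at 8.86, 9.13 and 8.55 in KO against 10.06, 9.87 and 10.19 in WT libraries of set 5. The set 6 values were 9.23, 9.51 and 8.79 in KO against 10.24, 10.11 and 10.26 in WT libraries, with no overlap in either set. In set 3 the groups overlapped, at 8.86, 8.70 and 9.32 in KO against 9.23, 8.93 and 9.46 in WT libraries. The difference was -1.19 in set 5 (SE 0.20; limma adjusted p = 7.86e-05) and -1.02 in set 6 (SE 0.20; limma adjusted p = 0.000352). Gys1, the glycogen synthase gene, differed by -0.33 and -0.16. Pgm2, a phosphoglucomutase gene, rose by 0.22 in set 5 (SE 0.09; limma adjusted p = 0.0440) and by 0.31 in set 6 (SE 0.09; limma adjusted p = 0.00759). Pgm2 was at -0.17 and -0.10 after centring and passed in neither set, and the call in set 5 was lost when any of KO replicates 1 and 3 and WT replicates 2 and 3 was left out (limma adjusted p from 0.0602 to 0.165).

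In the pentose phosphate pathway, the 2 enzymes that make NADPH and the transketolase fell in sets 5 and 6. G6pdx, glucose 6-phosphate dehydrogenase at the entry of the pathway, stood at 10.29, 10.07 and 9.95 in KO against 10.83, 10.57 and 10.79 in WT libraries of set 5. In set 6 it stood at 10.17, 10.35 and 9.97 in KO against 10.80, 10.70 and 10.90 in WT libraries. All KO libraries of both sets lay below all WT libraries, and in set 3 the groups overlapped at 11.07, 10.71 and 10.92 in KO against 10.90, 10.80 and 10.91 in WT libraries. The difference was -0.63 in set 5 (SE 0.12; limma adjusted p = 0.000202) and -0.64 in set 6 (SE 0.12; limma adjusted p = 0.000193).

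Tkt, the transketolase gene, stood at 12.71, 13.02 and 12.62 in KO against 13.31, 13.39 and 13.36 in WT libraries of set 5. In set 6 it was at 13.17, 13.20 and 12.94 in KO against 13.49, 13.38 and 13.42 in WT libraries, and in set 3 at 13.49, 13.27 and 13.25 in KO against 13.50, 13.53 and 13.60 in WT libraries. KO libraries were below WT libraries in all 3 sets, by a mean of -0.57 in set 5 (SE 0.09; limma adjusted p = 7.67e-05), -0.33 in set 6 (SE 0.09; limma adjusted p = 0.00729) and -0.21 in set 3 (SE 0.09; limma adjusted p = 0.173). Pgd, which makes the second NADPH, fell by 0.54 in set 5 (SE 0.10; limma adjusted p = 0.000257) and by 0.34 in set 6 (SE 0.10; limma adjusted p = 0.00896), the call in set 6 being lost without KO replicate 3 (limma adjusted p = 0.0616).

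The other 3 genes of the pathway rose in at least 1 set on the deposited scale. Pgls, the lactonase gene, rose by 0.21 in set 5 (SE 0.07; limma adjusted p = 0.0227) and by 0.28 in set 6 (SE 0.07; limma adjusted p = 0.00404), the call in set 5 being lost when KO replicate 2, WT replicate 1 or WT replicate 2 was left out (limma adjusted p from 0.0527 to 0.0604). Taldo1, transaldolase, rose by 0.25 (SE 0.07; limma adjusted p = 0.00448) and Rpia, the ribose 5-phosphate isomerase gene, by 0.38 (SE 0.08; limma adjusted p = 0.00113) in set 6. After centring none of the 3 was higher in any set, and Taldo1 and Rpia were lower in set 5, at -0.38 (limma adjusted p = 0.000206) and -0.37 (limma adjusted p = 0.0019).

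**Figure D3:**
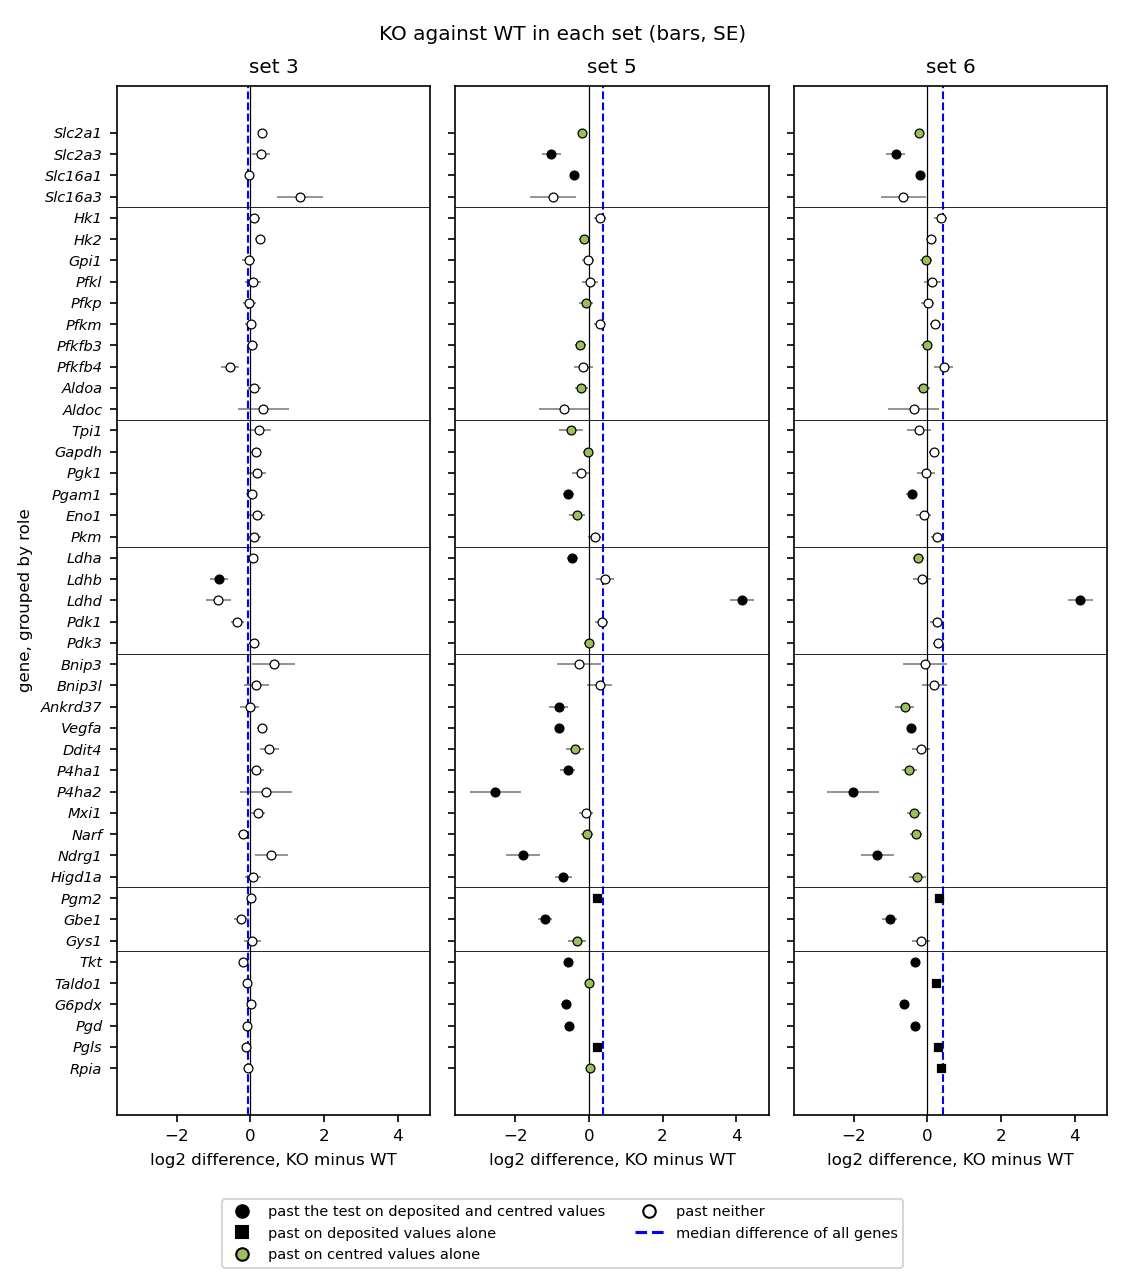
Log2 difference of KO from WT (horizontal axis) for the 45 genes by set, with bars of 1 SE and the median of all genes as a dashed line. Black points passed the test on the deposited scale (squares, on that scale alone), green points after centring alone and white points on neither scale. Hypoxia-induced genes such as P4ha2 (-2.54) and Ndrg1 (-1.78) lie left of 0 in set 5, and Ldhd (4.16) lies far to the right.

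The KO effect itself was compared between sets, as its mean over sets 5 and 6 minus its value in set 3. Libraries of sets 5 and 6 with the same replicate number were correlated, at 0.22 to 0.34 in KO and 0.12 to 0.16 in WT cells. The fit took them as independent, so the SE of this difference may be too small. A block within each genotype was not fitted for it. Of the 45 genes, 13 were lower and 6 higher by this difference, where 6.39% of all genes were lower and 49.1% higher. All 4 transporters were among the lower ones, at -2.16 for Slc16a3 (SE 0.76; limma adjusted p = 0.0241), -1.22 for Slc2a3 (SE 0.31; limma adjusted p = 0.00318), -0.50 for Slc2a1 and -0.26 for Slc16a1. P4ha2 was at -2.70 (SE 0.85; limma adjusted p = 0.0135), Ndrg1 at -2.13 (SE 0.55; limma adjusted p = 0.00382), Vegfa at -0.93 (SE 0.15; limma adjusted p = 7.31e-05) and Gbe1 at -0.86 (SE 0.24; limma adjusted p = 0.00639). Ldhd was at 5.03 (SE 0.41; limma adjusted p = 2.47e-07) and Ldhb at 1.0 (SE 0.30; limma adjusted p = 0.00952).

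After centring, 24 genes were lower and Ldhd alone was higher, where 18.5% of all genes were lower and 19.6% higher. The number lower on the deposited scale was 8 when replicate 1 of set 3 was left out in either genotype. The call on Slc16a3 did not hold when any of KO replicates 1 and 3 and WT replicates 1 and 2 of set 3 was left out (limma adjusted p from 0.0548 to 0.0944), while those on Slc2a3, P4ha2, Ndrg1, Vegfa, Gbe1, G6pdx and Ldhd were kept without any 1 of the 18 libraries.

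Between set 3 and set 5, the share of the 45 genes that rose was close to that of all genes in KO cells and above it in WT cells. In KO cells 26 rose and 8 fell from set 3, where 49.8% of all genes rose and 23.4% fell. In WT cells 27 rose and 6 fell, where 29.3% of all genes rose and 38.3% fell. The median difference was 0.43 in KO cells, beside 0.38 for all genes, and 0.70 in WT cells, beside -0.12 for all genes. After centring, 20 rose and 14 fell in KO cells, where 35.6% of all genes rose and 35.7% fell, and 27 rose and 5 fell in WT cells, where 30.5% rose and 36.8% fell.

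The hypoxia-induced genes rose almost without exception. All 11 rose in WT cells, with a median of 2.31, and 10 rose in KO cells, with a median over the 11 of 1.65, Higd1a (0.09) being the one that did not pass. P4ha2 differed by 2.19 in KO cells (SE 0.70; limma adjusted p = 0.00986) and by 5.15 in WT cells (SE 0.70; limma adjusted p = 6.75e-06). Ndrg1 differed by 1.65 in KO and 4.0 in WT cells, Vegfa by 2.12 and 3.23, and Ddit4 by 1.75 and 2.64 in the same order. In contrast, Bnip3l differed by 1.36 in KO and 1.22 in WT cells and Narf by 1.34 and 1.21. The P4ha2 call in KO cells was lost without KO replicate 2 of set 5 (limma adjusted p = 0.0605).

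Of the 21 genes that rose in both genotypes, 15 had the larger rise in WT cells, and 20 after centring. Of the 3270 genes of the whole table that rose in both, 27.7% had the larger rise in WT cells, and 53.0% after centring. Among the transporters, Slc2a3 rose by 1.86 in KO and 3.16 in WT cells, and Slc2a1 by 1.76 and 2.25. Slc16a3 rose by 3.64 in WT cells (SE 0.62) and was at 1.31 in KO cells, which did not pass. In the first part of glycolysis Aldoc rose by 3.45 in KO and 4.49 in WT cells, and Hk2 fell, at -0.85 and -0.46. Only Ldhd passed the test in opposite directions, with a rise of 2.27 in KO cells (SE 0.33) and a fall of 2.76 in WT cells (SE 0.33). These differences use the same libraries as the KO and WT comparison and are another view of it.

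**Figure D4:**
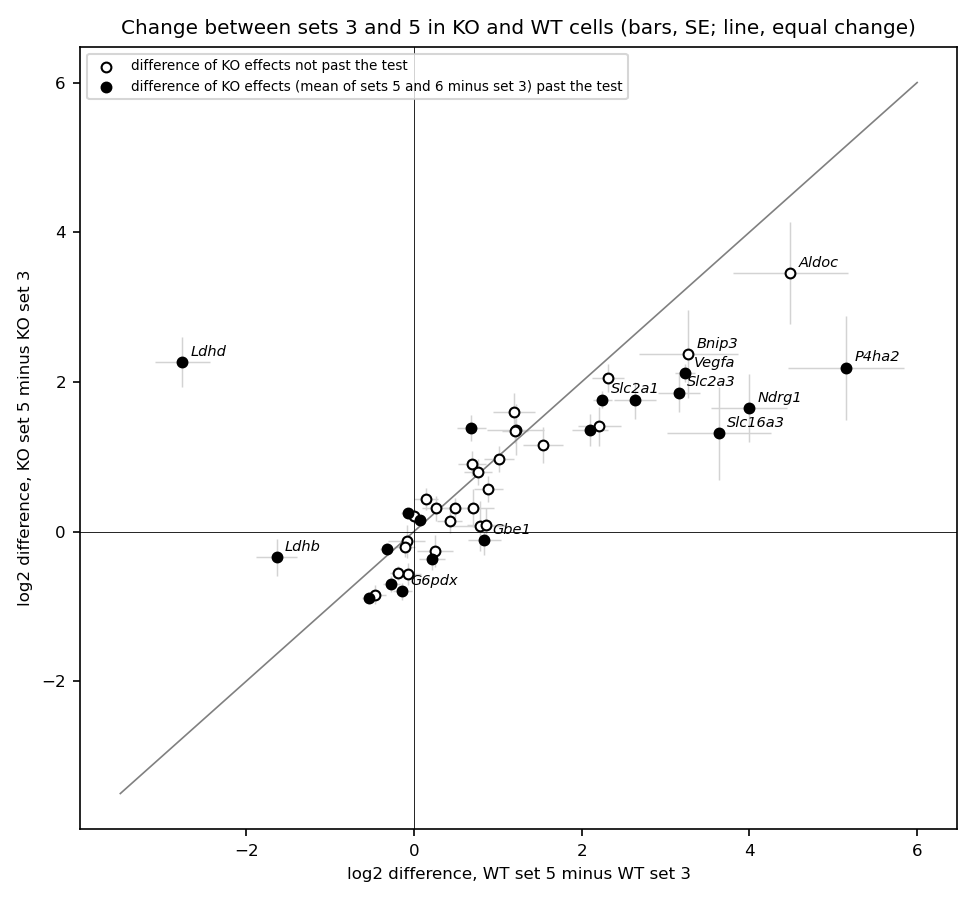
Log2 difference of set 5 from set 3 in WT cells (horizontal axis) and in KO cells (vertical axis) for the 45 genes, with bars of 1 SE and the line of equal differences. Black points mark the genes whose KO effect differed between the later sets and set 3 by the limma test. Ndrg1 and P4ha2 lie right of the line, at 4.0 and 5.15 in WT cells, and Ldhd lies alone at the upper left.

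Markers of other cells also moved between the sets. Of all genes, 23.4% fell from set 3 to set 5 in KO cells and 38.3% in WT cells. From set 3 to set 5 the erythroid markers fell in 6 of 6 cases in KO and in 4 of 6 in WT cells, and the mast cell and basophil markers in 7 of 7 in KO and 1 of 7 in WT cells, with 1 rising. The dendritic cell markers fell in 3 of 3 cases in both genotypes, the NK cell markers in 4 of 6 in KO and 5 of 6 in WT cells, the B cell markers in 5 of 8 in KO and 3 of 8 in WT cells, and the CD8 T cell markers in 1 of 2 in KO and 2 of 2 in WT cells. Of 4 measured macrophage and monocyte markers, 2 rose and 1 fell in KO cells, and 1 rose and 1 fell in WT cells. Of all genes, 49.8% rose in KO and 29.3% in WT cells. The summed log2 levels of these 4 markers were higher in set 5. They were 7.14 to 7.63 in set 3 and 9.35 to 9.82 in set 5 in KO libraries. In WT libraries they were 6.21 to 6.75 and 7.24 to 7.65. The mitochondrially encoded genes fell in 3 of 13 cases in KO and 8 of 13 in WT cells. Their share in KO cells, like that of the B cell markers in WT cells, was near the share of all genes. The part of these marker shifts in the rises above was not tested.

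Fewer genes differed between sets 6 and 5. In KO cells 6 genes were higher in set 6 than in set 5 and none was lower, where 9.93% of all genes were higher and 2.03% lower. They were Hk2 (0.43), Pdk3 (0.47), Tkt (0.32), Taldo1 (0.29), Pgd (0.33) and Rpia (0.48), of which Rpia alone passed after centring, where 3.87% of all genes were higher. The number was 2 without KO replicate 1 or 3 of set 5 or KO replicate 1 or 2 of set 6. In WT cells none was higher or lower by limma, where 3.37% of all genes differed. With the replicate number, which pairs sets 6 and 5, as a block within each genotype, Pfkfb3 was a further higher gene in KO cells (0.31; limma adjusted p = 0.0455), and the genes called in the whole table numbered 2221 in place of 1501 in KO cells and 740 in place of 423 in WT cells.

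Replicates of a group moved together across these genes. In KO cells of set 6, replicate 2 was the highest of the 3 libraries in 41 of 45 genes and replicate 3 the lowest in 41 of 45, where it was so for 33.6% and 31.5% of all genes. In KO cells of set 5, replicate 2 was highest in 38 and replicate 3 lowest in 37 genes, where the shares of all genes were 35.0% and 30%. In set 3, replicate 3 was highest in 31 genes in KO and in 35 genes in WT cells. The genes are therefore not independent of each other, and a library that is low in one is low in most.

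The spread followed the same lines. The median SD over the 45 genes was 0.255 in KO against 0.0909 in WT cells of set 5 and 0.245 in KO against 0.0846 in WT cells of set 6. Over all genes it was 0.169 in KO against 0.128 in WT cells of set 5 and 0.149 in KO against 0.139 in WT cells of set 6. In set 3 it was 0.285 in KO and 0.282 in WT cells for the 45 genes, against 0.172 and 0.148 for all genes in the same order. The largest spread among KO libraries of sets 5 and 6 was that of P4ha2, with an SD of 1.23 and 1.15, whereas Aldoc led in set 3 with 1.43 in KO and 1.62 in WT cells.

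Among regulators of the HIF pathway, Hif1a and Epas1 rose in KO cells of sets 5 and 6. All 11 listed were measured, and 2 rose in set 3, 9 in set 5 and 7 in set 6, with none falling, where 6.92%, 50.1% and 53.9% of all genes rose. After centring 2, 6 and 6 were higher and 2 were lower in set 6, where 24.9% of all genes were higher in set 5 and 18.8% in set 6. Hif1a, which encodes the oxygen-regulated subunit HIF-1α, rose by 1.56 in set 5 (SE 0.18) and 1.42 in set 6 (SE 0.18), and differed by 0.32 in set 3. Epas1, the gene of HIF-2α, rose by 2.69, 5.89 and 6.36 in sets 3, 5 and 6 (SE 0.45 each). Hif1an and Egln2, oxygen-dependent hydroxylases that restrain HIF, rose by 1.17 and 0.94 in set 5 and by 0.97 and 0.69 in set 6. Egln3, a hydroxylase gene that is itself a HIF target, was at -0.67 and -0.50 and did not pass. The median of the list was 0.94 in set 5 and 0.70 in set 6, beside 0.39 and 0.42 for all genes.

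Other hypoxia targets that are not among the 45 went both ways, with a larger share lower than among all genes. Of 29 listed, 24 were measured. In set 5, 5 rose and 7 fell, where 50.1% of all genes rose and 8.08% fell. In set 6, 7 rose and 4 fell, where 53.9% rose and 4.59% fell. After centring 4 were higher and 11 lower in set 5, where 24.9% of all genes were higher and 24.7% lower. In set 6, 4 were higher and 10 lower, where 18.8% were higher and 18.5% lower. Plod2, the collagen lysyl hydroxylase gene, fell by 1.5 in set 5 and decreased by 1.23 in set 6, and Car12, a carbonic anhydrase gene, fell by 1.33 in set 5. Fam162a was at -0.82 and -0.76 and Zfp395 at -0.81 and -0.91 in these sets. Cited2, an inhibitor of HIF at the coactivator p300, rose by 1.57 and 1.13, the histone demethylase gene Kdm3a by 0.87 and 0.84, and Bhlhe40 by 0.86 and 0.93.

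Neighbouring genes of the same pathways were also mixed, and on the deposited scale 50.1% of all genes rose in set 5 and 53.9% in set 6. On that scale 8.08% of all genes fell in set 5 and 4.59% in set 6. After centring 24.9% of all genes were higher and 24.7% lower in set 5, and 18.8% and 18.5% in set 6. Of 20 measured glycolysis neighbours, 9 rose and 3 fell in set 5 and 11 rose and 2 fell in set 6, or 5 and 8 and 5 and 5 after centring, so the share that rose was near that of all genes. Eno2, an enolase isoform, rose by 3.11 and 2.90 and the hexose transporter gene Slc2a6 by 2.67 and 2.73, while Pgp fell, at -0.68 and -0.33. Of 12 measured glycogen neighbours, 8 rose and 1 fell in set 5 and 7 rose and 1 fell in set 6, or 4 and 1 and 3 and 1 after centring. The 1 that fell was Pygl, the liver-type glycogen phosphorylase gene, at -3.78 (SE 0.57) in set 5 and -3.15 (SE 0.57) in set 6. Of 7 measured pentose phosphate neighbours, 3 rose and 1 fell in set 5, and 4 rose and 1 fell in set 6, whereas after centring none was higher and 3 were lower in set 5 and 2 in set 6. A further 12 measured genes covered pyruvate import into mitochondria, the pyruvate dehydrogenase complex with its regulators and pyruvate carboxylase. Of these, 3 rose in each set, and 1 fell in set 5 and none in set 6. After centring 8 of the 12 were lower in each set, a share above that of all genes. Pdk2, a kinase that inhibits the complex, was the one that stayed higher after centring, rising by 1.19 and 1.22.

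In the authors' deposited table, whose test score was 0 for small folds, 1 of the 45 genes was higher and 8 were lower at an adjusted p under 0.05 in set 5, and 1 and 5 in set 6. None passed there in set 3. How many of all genes passed in the authors' table was not counted, and the shares of all genes given above come from another test. Ldhd was the higher one, with the authors' adjusted p of 1.99e-07 in set 5 and 3.99e-07 in set 6 in the authors' deposited table. The 5 lower in set 6 of the authors' deposited table were Slc2a3, Ndrg1, P4ha2, Gbe1 and G6pdx, which were also among the 8 of set 5.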

How the data were processed

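RNA-seq values of 18 libraries, 3 in each of 6 groups, were used. The main deposited table gives log2 values of 12547 genes, per the file headers and their range, and how they were normalized is not stated in the sources used here. Library depth cannot be recovered from them. The submitters' processing notes list Salmon 1.9.0, edgeR, limma and GRCm39 without saying what each did. In the authors' second deposited table each contrast has log2 fold changes, a test score and p-values, raw and adjusted, per the file headers. Columns of samples not used numbered 0.

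All tests came from limma 3.58.1 (R 4.3.3), fitted over every gene as 1 model of 6 group means. Variance was allowed to follow level, which left 12 residual degrees of freedom, and p was adjusted by Benjamini-Hochberg with 0.05 as the threshold. The model was tested on simulated data. The genes and lists were chosen with earlier results of these data known. Values by library are given for the 12 called genes with the largest difference between KO and WT in any set and the 5 with the largest difference of KO effects between sets, 13 genes in all. Other members are named by role, and genes of the neighbouring lists were picked as examples after their values were seen. Summed levels are log2 of summed linear values.

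Pairing by replicate number was checked with correlations of the libraries' deviations from their group means. KO with WT gave -0.08 to 0.18 within sets and was taken as unpaired, like set 5 with set 3. Set 6 with set 5 was paired, at 0.22 to 0.34 for KO and 0.12 to 0.16 for WT, as read from the data and not from the labels.

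Alternatives were libraries centred on their median, quantile normalization, 1 added on the linear scale, a floor on the mean log2 value at 6 (10056 genes, 44 of the 45), a minimum fold of 1.2, the replicate number as a block and leaving out each library. The floor on the mean left out Ldhd. The block within each genotype was added after seeing the data.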

Additional observations from a re-analysis of the deposited data

Results flagged for a closer look

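The KO effect differed between the later sets and set 3 in 19 of the 45 genes, by the limma test of the difference itself (mean of sets 5 and 6 minus set 3). Of all 12547 genes 6963 differed, a larger share than among the 45. By direction, 13 of the 45 were lower and 6 higher, where 6.39% of all genes were lower and 49.1% higher. Of the transporters, Slc16a3 was at -2.16, Slc2a3 at -1.22, Slc2a1 at -0.50 and Slc16a1 at -0.26. Of the hypoxia-induced genes, P4ha2 was at -2.70, Ndrg1 at -2.13, Vegfa at -0.93, Ddit4 at -0.79 and P4ha1 at -0.69. Gbe1 of the glycogen branch was at -0.86 and Pgam1 of the triose steps at -0.52. In the pentose phosphate pathway G6pdx was at -0.66 and Pgd at -0.33. The 6 genes with a positive difference were Ldhd at 5.03, Ldhb at 1.0, Pdk1 at 0.65, Pgls at 0.36, Rpia at 0.26 and Taldo1 at 0.21, and after centring Ldhd alone of these stayed higher. The calls on Slc16a1, Slc16a3, Pgam1, Pdk1, Ddit4, P4ha1, Taldo1, Pgd and Rpia were lost without at least 1 library, with the adjusted p of limma from 0.0501 to 0.137. The test took the paired libraries of sets 5 and 6 as independent, so its SE may be too small.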

How the results depend on the processing

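Centring and quantile normalization lowered the counts of genes higher in KO cells, where most genes of the table were higher in sets 5 and 6. Genes higher in KO against WT numbered 1 and 1 in set 5 and 1 and 1 in set 6 with centring and quantile normalization in that order, and genes lower 28 and 28 in set 5 and 20 and 23 in set 6. All genes called in set 6 numbered 4669 and 4723. For the difference of KO effects 1 and 1 were higher and 24 and 26 lower. In KO cells, 14 and 13 were lower in set 5 than in set 3, and 1 and 1 higher in set 6 than in set 5, with 943 and 931 of all genes called, and in WT cells 258 and 226 of all genes were called between sets 6 and 5.

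With a minimum fold of 1.2, set 3 had 0 genes lower and 492 of all genes called. Set 5 had 1 higher, 8 lower and 4743 of all genes, and set 6 had 1 higher, 5 lower and 4419 of all genes. For WT cells of set 5 against set 3, 3 were lower. For set 6 against set 5, 0 were higher in KO cells, with 75 of all genes called, and 87 of all genes in WT cells. The difference of KO effects had 2 higher, 7 lower and 4625 of all genes.

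Many signs turned with centring and quantile normalization. Positive differences numbered 13 of 45 in set 5 and 16 in set 6 on the deposited scale, and 2 in each set after centring. Listed here are only the turned signs of genes that passed the test before or after the change of scale. In set 5 Pdk3 was at -0.39 and -0.40, Pgm2 at -0.17 and -0.17, Taldo1 at -0.38 and -0.37, Pgls at -0.18 and -0.17 and Rpia at -0.37 and -0.38. In set 6 Pgm2 was at -0.10 and -0.10, Taldo1 at -0.16 and -0.18, Pgls at -0.13 and -0.13 and Rpia at -0.035 and -0.032, and Hk2 at -0.35 with quantile normalization. In KO cells of set 5 against set 3 Gapdh was at -0.069 with centring, Pgm2 at -0.17 and -0.18, Taldo1 at -0.22 and -0.21 and Pgls at -0.14 and -0.12. For the difference of KO effects Taldo1 was at -0.21 and -0.25, Pgls at -0.069 and -0.087 and Rpia at -0.16 and -0.19, and Pdk3 at -0.42 with quantile normalization.

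Leaving out each library gave 0 to 2 higher, 0 to 1 lower and 666 to 1914 of all genes in set 3, 1 to 2, 10 to 16 and 6619 to 7154 in set 5, and 5 to 6, 4 to 14 and 6679 to 6903 in set 6. For the difference of KO effects it gave 4 to 6, 8 to 18 and 6392 to 7012. For set 5 against set 3 it gave 22 to 28, 6 to 8 and 8765 to 8879 in KO cells and 24 to 28, 5 to 6 and 7876 to 8186 in WT cells. For set 6 against set 5 it gave 2 to 8, 0 and 589 to 1647 in KO cells and 0, 0 and 113 to 385 in WT cells.

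The replicate block changed 7 calls on these genes, although KO and WT libraries, like those of set 5 and set 3, were taken as unpaired. Pdk3 (adjusted p = 0.0377) and Ankrd37 (0.0195) passed in set 6 and Ankrd37 (0.0282) in the difference of KO effects by limma, while Gapdh (0.0535), Pgam1 (0.0526) and Pgm2 (0.0528) in KO cells of set 5 against set 3 and Tpi1 (0.0552) in WT cells were lost. For set 6 against set 5, where numbers pair the libraries, the block within each genotype raised the genes called to 2221, from 1501, in KO cells, with Pfkfb3 (0.0455) added, and to 740, from 423, in WT cells. Adding 1 on the linear scale left all 360 results for single genes on the same side of the threshold. The filter on low values removed Ldhd, whose mean lay under 6, so it did not test the rise of Ldhd. Of the results for the other genes it left 351 and moved 1. The log2 scale gives no depth, so the smallest detectable difference of low genes such as Ldhd in WT cells is unknown.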
